A study of Mus musculus with 16 samples.

Results

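The genes described are 10 transcription factors of B-cell development and blood progenitors, Pax5, Ebf1, Tcf3, Ikzf1, Ikzf3, Bach2, Myb, Sox4, Lef1 and Erg. They were chosen by symbol from 23279 gene symbols measured by RNA-seq in mouse pre-B cells, and all 10 passed the filter on low values (at least 1 FPKM in at least 4 of 16 libraries). The libraries formed 4 groups of 4 that crossed BCR-ABL1, the fusion tyrosine kinase of Philadelphia chromosome-positive leukaemia, with SHP2, the phosphatase encoded by Ptpn11. Cells labelled BCR-ABL NULL (-/-) or BCR-ABL WT (+/+), called BCR-ABL1-negative and BCR-ABL1-positive here, were each SHP2 WT (+/+) or SHP2 NULL (-/-), called SHP2 wild-type and SHP2-null. The labels give pre-B cells as the cell type of every group and do not state how the kinase was introduced, how Ptpn11 was deleted, or the strain and age of the animals. Nor do they say if the 4 libraries of each group are independent animals or cultures, and the p-values thus rest on the spread between these libraries, which may be technical.

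Commitment to the B lineage is set in steps by a small set of DNA-binding proteins. Tcf3 encodes the E proteins E12 and E47, which with EBF1 open the B-cell programme, and PAX5 then activates B-cell genes and represses genes of other lineages. Ikaros (Ikzf1) and Aiolos (Ikzf3) are zinc finger proteins that support the end of pre-B cell division and are tumour suppressors in this lineage, whereas MYB, SOX4, LEF1 and ERG act in dividing progenitors.

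The proximal promoters of Sox4, Myb and Erg are shown because these were the members whose levels passed the test in a comparison the design implies. Each sequence is the 250 bases before a RefSeq transcription start on GRCm38.p6, read in the direction of the gene. Where a member had several listed starts (3 for Erg, 4 for Lef1, 2 each for Ebf1 and Ikzf1), only the most upstream was used. Capitals mark every match, on either strand, to 1 of 8 short motifs: CAGNTG (E proteins), the EBF1 palindrome, TGGGAA (Ikaros), CCGGAA (ETS factors such as ERG), AACNG (MYB), CTTTGA (LEF1), ACAAAG (SOX factors) and TGANTCA (BACH2). No capitals in a sequence means only that these letters are not in that window.
Sox4, chr13:28953700-28953949, minus strand: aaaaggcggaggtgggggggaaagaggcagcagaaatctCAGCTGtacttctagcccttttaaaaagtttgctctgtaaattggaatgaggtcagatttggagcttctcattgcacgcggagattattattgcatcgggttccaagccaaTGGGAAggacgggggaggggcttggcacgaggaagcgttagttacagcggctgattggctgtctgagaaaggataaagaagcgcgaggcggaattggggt
Myb, chr10:21160985-21161234, minus strand: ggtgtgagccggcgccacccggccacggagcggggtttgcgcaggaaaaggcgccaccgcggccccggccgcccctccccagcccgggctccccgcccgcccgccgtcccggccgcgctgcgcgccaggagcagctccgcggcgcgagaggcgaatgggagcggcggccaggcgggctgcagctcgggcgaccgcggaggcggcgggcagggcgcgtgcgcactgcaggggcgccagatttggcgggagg
Erg, chr16:95586594-95586843, minus strand: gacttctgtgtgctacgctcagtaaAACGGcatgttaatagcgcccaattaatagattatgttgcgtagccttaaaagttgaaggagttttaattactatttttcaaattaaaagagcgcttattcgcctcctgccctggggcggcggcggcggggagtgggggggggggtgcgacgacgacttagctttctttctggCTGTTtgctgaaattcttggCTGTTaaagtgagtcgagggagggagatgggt

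The Sox4 window held 1 E-protein motif, CAGCTG, 211 to 206 bases before the start, and 1 Ikaros motif, TGGGAA, 100 to 95 bases before it. Among 32851 windows of the same length, 44.8% held CAGNTG and 21.6% held TGGGAA. The Myb window, with 81.2% G and C, held none of the 8 motifs. The Erg window held 3 matches to AACNG, at 225 to 221, 52 to 48 and 32 to 28 bases before the start, and 74.2% of all windows held at least 1. Over the 9 members with a RefSeq window, 6 held AACNG (Pax5, Ebf1, Tcf3, Erg, Lef1 and Bach2), 2 held CCGGAA (Tcf3 and Bach2, against 12% of all windows), 2 held ACAAAG (Tcf3 and Ikzf1, against 16.5%) and 1 held CTTTGA (Bach2, against 13.8%). The EBF1 palindrome and TGANTCA were in 0 of the 9 windows and in 0.779% and 6.75% of all windows. CAGNTG and TGGGAA were each in 1 of the 9 windows, that of Sox4. No RefSeq window was available for Ikzf3.

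Before the members are described, the labels and the cell type were checked. Ptpn11 averaged 16.7 ± 0.647 and 17.0 ± 0.957 FPKM (SD, n = 4) in the SHP2 wild-type groups without and with BCR-ABL1, and 5.79 ± 2.03 and 4.52 ± 1.21 FPKM in the SHP2-null groups, with every null library below every wild-type library. FPKM scales fragments to transcript length and to the mapped fragments of the library, so levels can be compared between genes. Summed FPKM ran from 348923 to 443702 per library, and the files hold no read counts, so the depth is unknown. The 9 pre-B markers used (such as Cd79a, Vpreb1 and Igll1) summed to between 1592 and 2209 FPKM in every library. Of 9 T and NK cell markers, 8 were below 1 FPKM in all 16 libraries, as were 6 of 7 stromal, 6 of 7 erythroid and megakaryocyte, 5 of 8 mature B and plasma, 3 of 6 mast cell and 6 of 12 myeloid markers. The myeloid sum was 415 FPKM in library 2 and 36.4 FPKM in library 3 of the BCR-ABL1-negative SHP2-null group, where Lyz2 (lysozyme) stood at 403 and 34.3 FPKM, and ran from 2.24 to 29.6 FPKM in the other 14. Bulk RNA cannot separate fewer cells of a type from less RNA per cell.

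All 10 members were well expressed in every group. Group means were highest for Myb, at 90.2 to 122 FPKM, followed by Pax5 at 63.8 to 73.7 and Ebf1 at 59.9 to 72.0 FPKM. Bach2 was the lowest, at 11.4 to 13.9 FPKM. When the 4 groups were put in order of their mean for each member, the libraries of neighbouring groups overlapped in 28 of 30 neighbouring pairs. The exceptions were Erg, where BCR-ABL1-positive SHP2 wild-type libraries were all above BCR-ABL1-negative SHP2 wild-type libraries, and Lef1, where BCR-ABL1-negative SHP2-null libraries were all above BCR-ABL1-positive SHP2 wild-type libraries. Neighbours in such an order are the groups with the closest means, and this count was not made over all genes. The count therefore only describes the levels of the members.

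**Figure D1:**
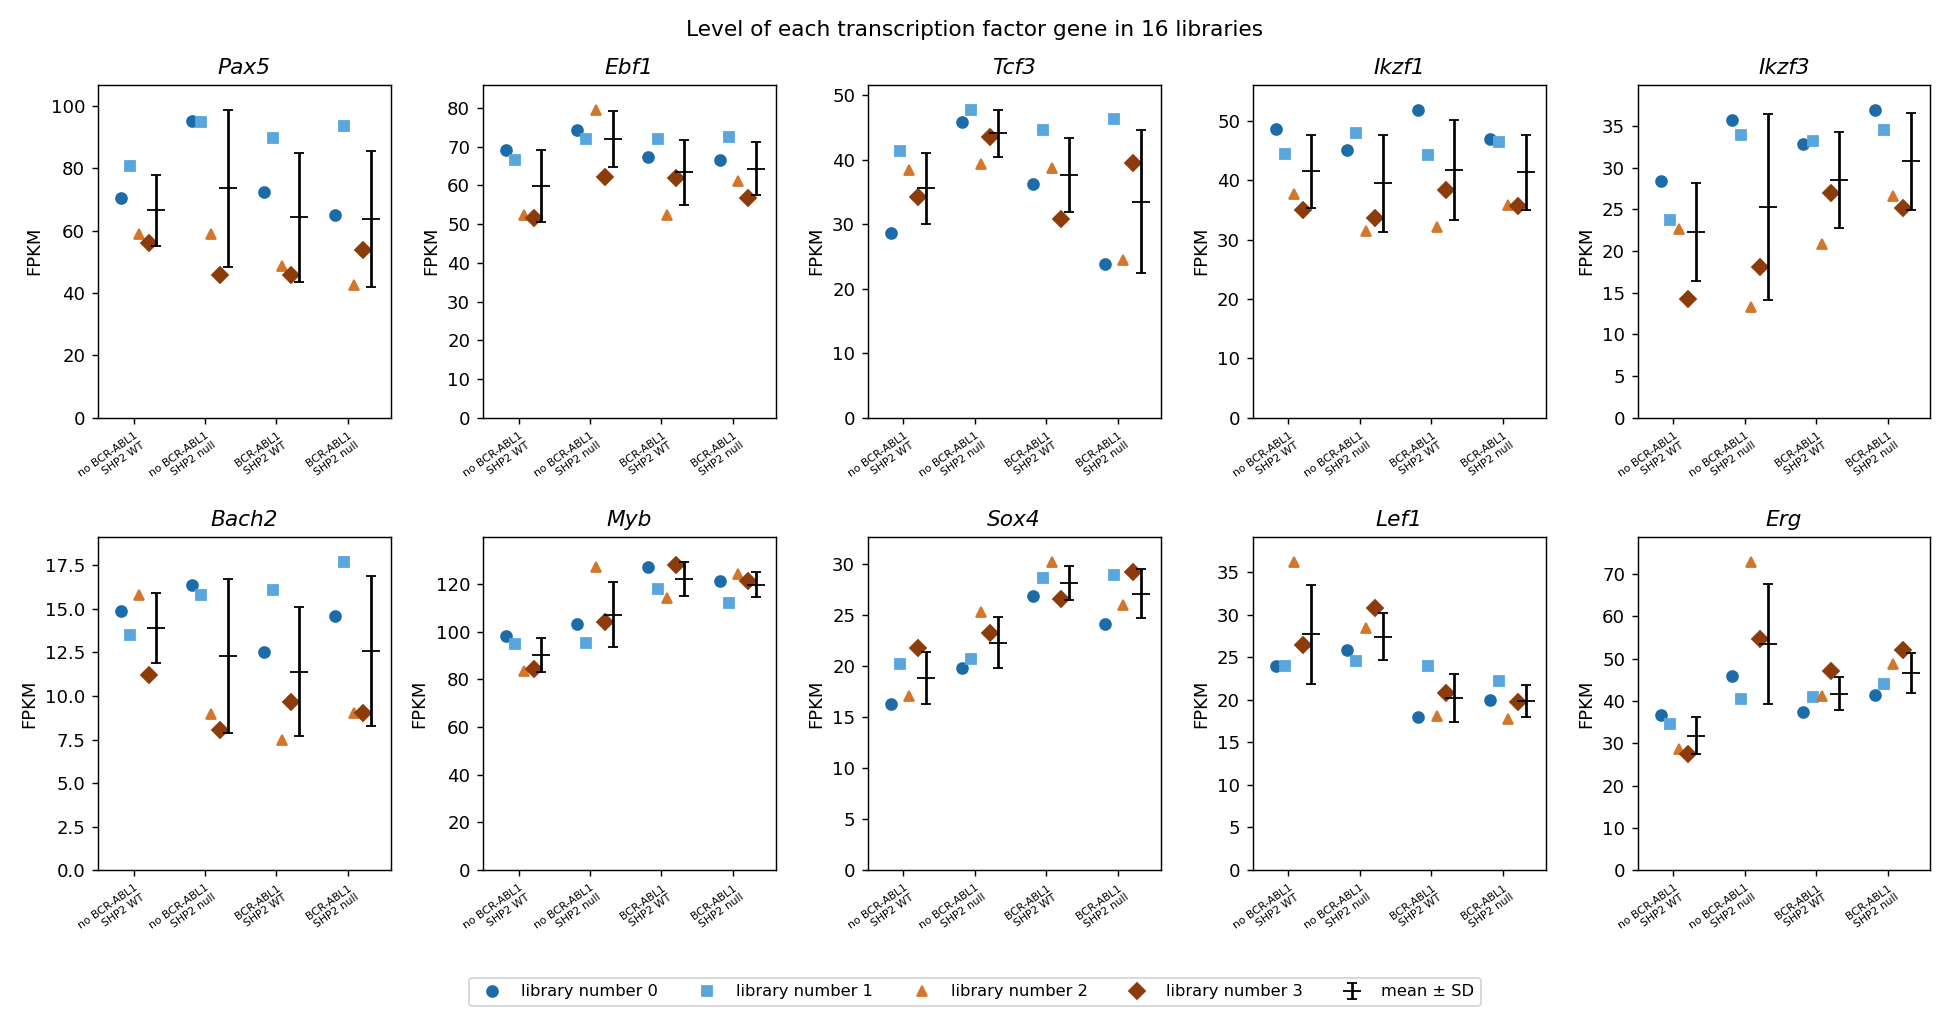
FPKM of each of the 10 genes (vertical axis, starting at 0) in the 16 libraries, by group. Symbols give the library number of the sample title, and bars give the group mean ± SD (n = 4). Sox4 ran from 16.3 to 21.8 FPKM in BCR-ABL1-negative SHP2 wild-type cells and from 26.6 to 30.2 FPKM in BCR-ABL1-positive SHP2 wild-type cells.

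The first question was what BCR-ABL1 did to these factors in cells with wild-type SHP2. Sox4 and Myb rose, and the other 8 members did not pass the test. Sox4, an SRY-box factor needed for B-cell progenitors, lies at chr13:28948919-28953713 on GRCm38 in a gene of 1 exon. Its level in libraries 0 to 3 was 16.3, 20.2, 17.1 and 21.8 FPKM in BCR-ABL1-negative cells and 26.9, 28.6, 30.2 and 26.6 FPKM in BCR-ABL1-positive cells. Every BCR-ABL1-positive library was thus above every BCR-ABL1-negative one, and on the log2(FPKM + 1) scale used for all changes here the difference was 0.56 ± 0.10 (SE, 95% interval 0.35 to 0.77, adjusted p = 0.00391 in limma). Myb, the progenitor factor at chr10:21124935-21160984, read 98.0, 94.8, 83.6 and 84.5 FPKM without the kinase and 127, 118, 114 and 128 FPKM with it. These groups did not overlap either, and the change was 0.43 ± 0.09 (95% interval 0.24 to 0.61, adjusted p = 0.0107 in limma). Under quantile normalization the Myb change was 0.40 with an adjusted p of 0.0557 in limma, whereas Sox4 passed under all 28 alternatives. The 2 calls stand beside 4.67% of all 10210 genes tested that passed in this comparison, and 2.95% that passed as higher.

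Erg and Lef1 had unadjusted p below 0.05 in the same comparison and did not pass, so that 4 of 10 members had such a p beside 19.1% of all genes tested. Erg, an ETS factor of stem and progenitor cells at chr16:95359169-95586593, read 36.6, 34.5, 28.7 and 27.5 FPKM without BCR-ABL1 and 37.5, 40.9, 41.3 and 47.0 FPKM with it. The groups did not overlap, but the difference of 0.39 ± 0.15 had an adjusted p of 0.160 in limma. Members whose groups did not overlap were therefore 3 of 10 (Sox4, Myb and Erg), beside 11.7% of all genes tested. Lef1, the nuclear partner of beta-catenin at chr3:131110471-131224356, read 24.0, 24.0, 36.2 and 26.5 FPKM without the kinase and 18.0, 24.0, 18.1 and 20.8 FPKM with it. The groups met at 24.0 FPKM, and the difference was -0.42 ± 0.13 (adjusted p = 0.0700 in limma).

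The B-lineage factors gave no call in this comparison. The difference was -0.09 ± 0.28 for Pax5, 0.08 ± 0.12 for Ebf1, 0.08 ± 0.18 for Tcf3, 0.00 ± 0.17 for Ikzf1, 0.36 ± 0.28 for Ikzf3 and -0.30 ± 0.26 for Bach2. Precision differed between genes: the 95% interval ran from -0.18 to 0.34 for Ebf1 and from -0.67 to 0.50 for Pax5. With the replicate number as a block the interval of Pax5 narrowed, to -0.34 to 0.17. The median change of the 10 members was 0.08, beside 0.04 over all genes tested.

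**Figure D2:**
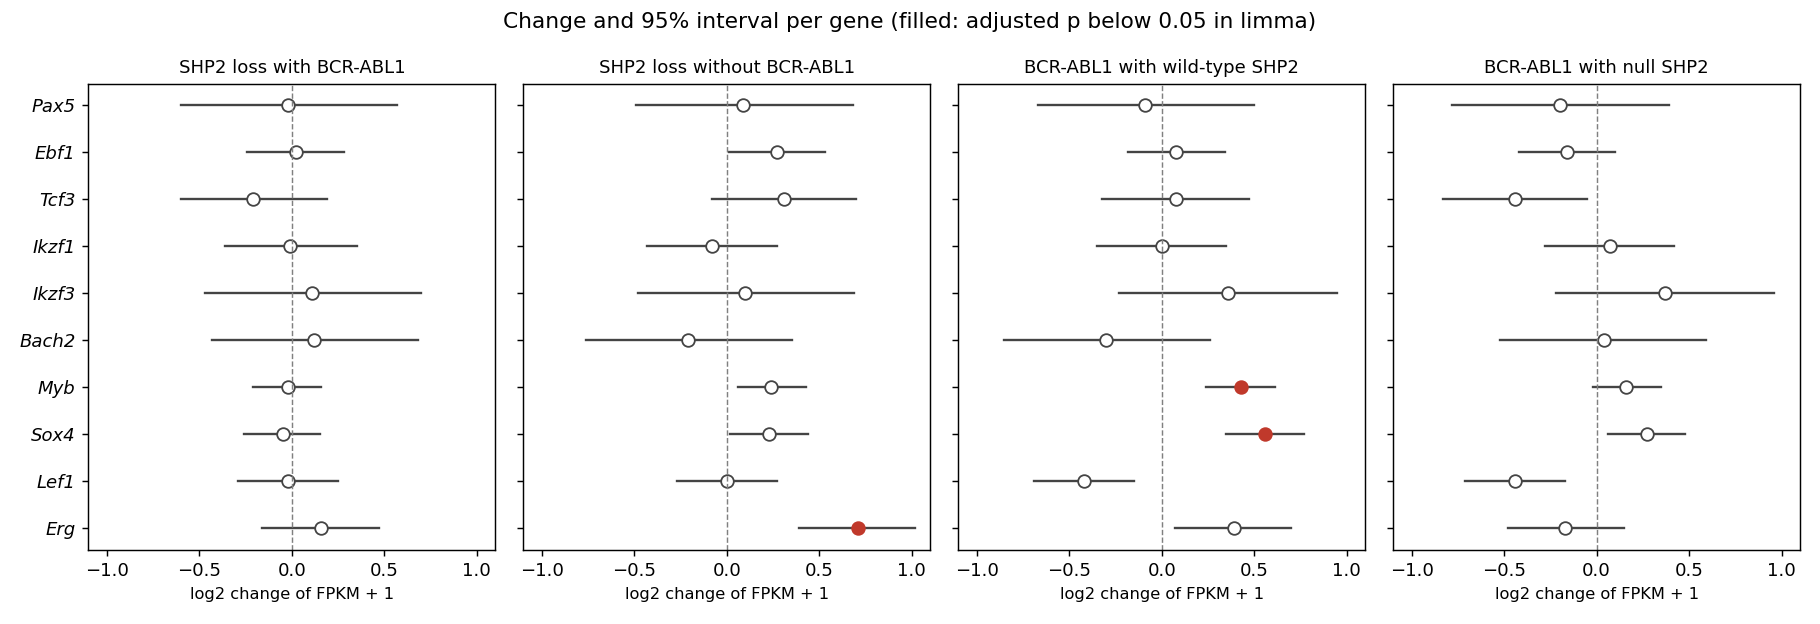
Change of each gene (points) with its 95% interval (lines) on the log2(FPKM + 1) scale, in 4 comparisons. Filled points passed an adjusted p of 0.05 in limma, and these are Erg for SHP2 loss without BCR-ABL1 and Myb and Sox4 for BCR-ABL1 with wild-type SHP2.

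In SHP2-null cells none of the 10 members passed the test for BCR-ABL1, where 1.26% of all genes tested passed (5.27% with the replicate number as a block) and 3 members had an unadjusted p below 0.05 beside 13.5% of all genes. This comparison shares no libraries with the one in wild-type cells. Sox4 read 19.8, 20.7, 25.3 and 23.2 FPKM without BCR-ABL1 and 24.1, 28.9, 26.0 and 29.2 FPKM with it, which overlapped and gave 0.27 ± 0.10 (adjusted p = 0.229 in limma). Myb read 103, 95.2, 127 and 104 FPKM against 121, 112, 124 and 121 FPKM, a difference of 0.16 ± 0.09 (adjusted p = 0.447). Lef1 was the member whose groups did not overlap: it read 25.9, 24.6, 28.4 and 30.8 FPKM without BCR-ABL1 and 20.0, 22.2, 17.7 and 19.7 FPKM with it. That difference was -0.44 ± 0.13 (adjusted p = 0.120 in limma), and 1 of 10 members beside 7.07% of all genes tested did not overlap. Tcf3 differed by -0.44 ± 0.18 (adjusted p = 0.307), with 45.8, 47.8, 39.4 and 43.5 FPKM against a wide 23.9, 46.3, 24.5 and 39.5 FPKM. When limma weighted libraries by their spread, 5 members passed here (Sox4 0.35 and Myb 0.27 higher, Pax5 -0.72, Tcf3 -0.63 and Lef1 -0.41), with weights of 2.99 and 3.12 for BCR-ABL1-negative SHP2-null libraries 0 and 1 and of 0.34 and 0.44 for libraries 2 and 3. Under these weights 1861 of the 10210 genes tested passed in this comparison, against 129 without them.

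Averaged over both SHP2 states, a comparison added after the data were seen, BCR-ABL1 changed 3 of 10 members beside 8.98% of all genes tested (5.37% higher and 3.61% lower). Sox4 rose by 0.42 ± 0.07 (adjusted p = 0.00148 in limma) and Myb by 0.30 ± 0.06 (adjusted p = 0.00726). Lef1 fell by 0.43 on the log2 scale (SE 0.09, adjusted p = 0.00664), from a mean of 27.5 to 20.1 FPKM. All 3 passed under each of the 27 alternatives run for this comparison. Mast cell markers moved with the kinase in the same libraries: their sum ran from 7.78 to 13.5 FPKM in BCR-ABL1-negative SHP2 wild-type cells, from 0.0286 to 8.04 in BCR-ABL1-negative SHP2-null cells and from 0.0257 to 2.07 FPKM in BCR-ABL1-positive cells, with Mcpt4, Tpsb2 and Ms4a2 below 1 FPKM throughout. Cma1, a mast cell chymase gene, averaged 2.97 FPKM in the first of these groups and was listed at 0 in all 8 BCR-ABL1-positive libraries. Of 3 myeloid markers tested in this average, Lyz2 fell, from a mean of 63.6 to 3.85 FPKM (adjusted p = 0.0461 in limma), and S100a9, a neutrophil calcium-binding protein, rose from 0.0780 to 2.28 FPKM (adjusted p = 0.0340). The Lyz2 mean without the kinase includes 403 FPKM in SHP2-null library 2, and the other BCR-ABL1-negative libraries ran from 5.93 to 34.3 FPKM. Lyz2 kept its call with 4 of 16 libraries left out in turn, and S100a9 with 6. Igj, the antibody joining chain of plasma cells, fell from 5.89 to 0.694 FPKM and Pecam1, an adhesion molecule in the stromal list, rose from 10.2 to 13.3 FPKM (adjusted p = 0.0127 and 0.000849), both with each library left out in turn. The Igj mean without the kinase includes 28.2 FPKM in SHP2 wild-type library 1, beside 1.13 to 5.09 FPKM in the other BCR-ABL1-negative libraries. The part of any of these in the changes of Sox4, Myb and Lef1 was not tested.

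The second question was what loss of SHP2 did. With BCR-ABL1 present, 0 of 10 members passed in limma and 0 had an unadjusted p below 0.05, beside 0.313% and 3.65% of all genes tested. Changes ran from -0.21 for Tcf3 to 0.16 for Erg. The best measured were Myb, with 121, 112, 124 and 121 FPKM in null against 127, 118, 114 and 128 FPKM in wild-type cells, and Sox4, with 24.1, 28.9, 26.0 and 29.2 against 26.9, 28.6, 30.2 and 26.6 FPKM. Their 95% intervals were -0.21 to 0.16 and -0.26 to 0.15. For Pax5, Ikzf3 and Bach2 the standard error was 0.26 to 0.28, and their intervals ran from -0.60 to 0.57, from -0.47 to 0.70 and from -0.43 to 0.68. With the replicate block these narrowed to -0.27 to 0.24, -0.25 to 0.47 and -0.22 to 0.47.

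Without BCR-ABL1, loss of SHP2 went with a higher level of Erg. Erg read 46.0, 40.5, 72.9 and 54.7 FPKM in SHP2-null cells against 36.6, 34.5, 28.7 and 27.5 FPKM in wild-type cells, so all 4 null libraries were above all 4 wild-type ones. In libraries 0 and 1 the readings were 46.0 and 40.5 against 36.6 and 34.5 FPKM. The gap was wider in libraries 2 and 3, at 72.9 and 54.7 against 28.7 and 27.5 FPKM. The rise was 0.71 ± 0.15 (95% interval 0.39 to 1.02, adjusted p = 0.0230 in limma), 1 call among 10 members beside 1.54% of all genes tested (5.75% with the block) and 1.02% called higher. Groups without overlap were found for 1 member and 9.09% of all genes. The Erg reading of 72.9 FPKM belongs to the library with 403 FPKM of Lyz2 (myeloid sum 415 FPKM), and without that library the rise was 0.55 (adjusted p = 0.0487 in limma). It no longer passed without null library 3 (myeloid sum 36.4 FPKM, adjusted p = 0.0527) or wild-type library 2 or 3 (adjusted p = 0.0915 and 0.0861), and in a fit of these 2 groups alone (0.167 in limma).

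Another 3 members had an unadjusted p below 0.05 here, making 4 of 10 with Erg beside 16.1% of all genes, and did not pass in limma: Myb at 0.24 ± 0.09 (adjusted p = 0.190), Ebf1 at 0.27 ± 0.12 (adjusted p = 0.294) and Sox4 at 0.23 ± 0.10 (adjusted p = 0.263). Ebf1, at chr11:44617317-45008091, read 74.4, 72.0, 79.6 and 62.2 FPKM in null and 69.2, 66.5, 52.3 and 51.7 FPKM in wild-type cells. The median of the 10 members was 0.17, beside 0.02 over all genes tested. This comparison and that of BCR-ABL1 in wild-type cells use the same 4 control libraries, in which Sox4, Myb and Erg had their lowest group means. Side by side, Erg differed from those controls by 0.71 with SHP2 loss and 0.39 with BCR-ABL1, Myb by 0.24 and 0.43, and Sox4 by 0.23 and 0.56.

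Whether SHP2 loss acted differently with and without the kinase was tested by the interaction term. It passed for 0 of 10 members and 0% of all genes tested in limma, with an unadjusted p below 0.05 for 2 members beside 5.79% of all genes. Those were Erg, at -0.55 ± 0.21 (adjusted p = 0.839), and Myb, at -0.27 ± 0.12 (adjusted p = 0.839). The effect of SHP2 loss on Erg is thus not shown to differ between the backgrounds. Averaged over both backgrounds, again a comparison added after the data were seen, Erg differed by 0.43 ± 0.10 with an adjusted p of 0.0560 in limma, and of 0.0347 with the replicate number as a block, beside 1.49% of all genes called without and 4.35% with the block.

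Genes activated by PAX5 and EBF1 gave calls with BCR-ABL1, while Pax5 and Ebf1 themselves did not pass. Of 15 such genes described here, 3 rose in SHP2 wild-type cells and 8 had an unadjusted p below 0.05, where 2.95% of all genes tested passed as higher and 19.1% had such a p. The median of the 15 was 0.32, beside 0.04 over all genes. Cd72, a B-cell co-receptor, rose from 22.3 to 36.7 FPKM (0.73 ± 0.14, adjusted p = 0.00642 in limma). Fcrla, an Fc receptor-like protein, rose by 1.18 ± 0.29 (adjusted p = 0.0279) and Cd24a, a surface antigen of immature B cells, by 0.48 ± 0.11 (adjusted p = 0.0245). Bank1, a B-cell scaffold protein at 2.12 FPKM without and 0.866 FPKM with BCR-ABL1, lay on the other side of 0 (-0.76 ± 0.22) and did not pass (adjusted p = 0.0591 in limma). It passed as lower without SHP2-null library 2 of the BCR-ABL1-negative cells or SHP2 wild-type library 0 of the BCR-ABL1-positive cells. Cd72 passed with each of the 16 libraries left out in turn, and the number higher ran from 1 to 4. It was 1 without BCR-ABL1-negative SHP2 wild-type library 2 or 3 or BCR-ABL1-positive SHP2 wild-type library 0 or 3.

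In SHP2-null cells none of the 15 targets passed for BCR-ABL1 in limma, and 3 had an unadjusted p below 0.05, beside 1.26% and 13.5% of all genes tested. With the replicate block Fcrla passed as higher, beside 5.27% of all genes called. The values without the block were 0.95 ± 0.29 for Fcrla (adjusted p = 0.150), 0.36 ± 0.11 for Cd24a (0.160) and 0.11 ± 0.14 for Cd72 (0.791), and no interaction passed. For SHP2 loss 0 of the 15 passed in either background in limma, with 0 unadjusted p below 0.05 where BCR-ABL1 was present and 3 where it was absent (beside 3.65% and 16.1% of all genes). Those 3 were Blnk, Cd72 and Bst1, which passed as higher with the replicate block, beside 5.75% of all genes called. Of 6 genes that PAX5 represses, 3 were expressed enough to test, and they did not move one way: their median was -0.23 in wild-type and -0.11 in null cells for BCR-ABL1. Cd28, a T-cell co-stimulatory receptor, rose with BCR-ABL1 from 0.238 to 1.55 FPKM in wild-type cells (1.04 ± 0.15, adjusted p = 0.000875 in limma) and from 0.414 to 1.47 FPKM in null cells (0.82 ± 0.15, adjusted p = 0.0146), a low level throughout. In null cells the Cd28 call was lost without BCR-ABL1-negative library 3 (adjusted p = 0.0515), without BCR-ABL1-positive library 0 (0.0546) and in a fit of the 2 groups alone (0.0902). Notch1, a receptor that directs T-cell fate, was on the other side of 0, at -0.51 ± 0.20 in wild-type (adjusted p = 0.160 in limma) and -0.41 ± 0.20 in null cells (0.371). Averaged over both SHP2 states it fell from 4.06 to 2.63 FPKM (-0.46 ± 0.14, adjusted p = 0.0491), a call kept with 4 of 16 libraries left out in turn. Grap2, a T-cell adaptor protein, differed by -0.23 ± 0.14 and -0.11 ± 0.14 and did not pass (adjusted p = 0.410 and 0.792).

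**Figure D3:**
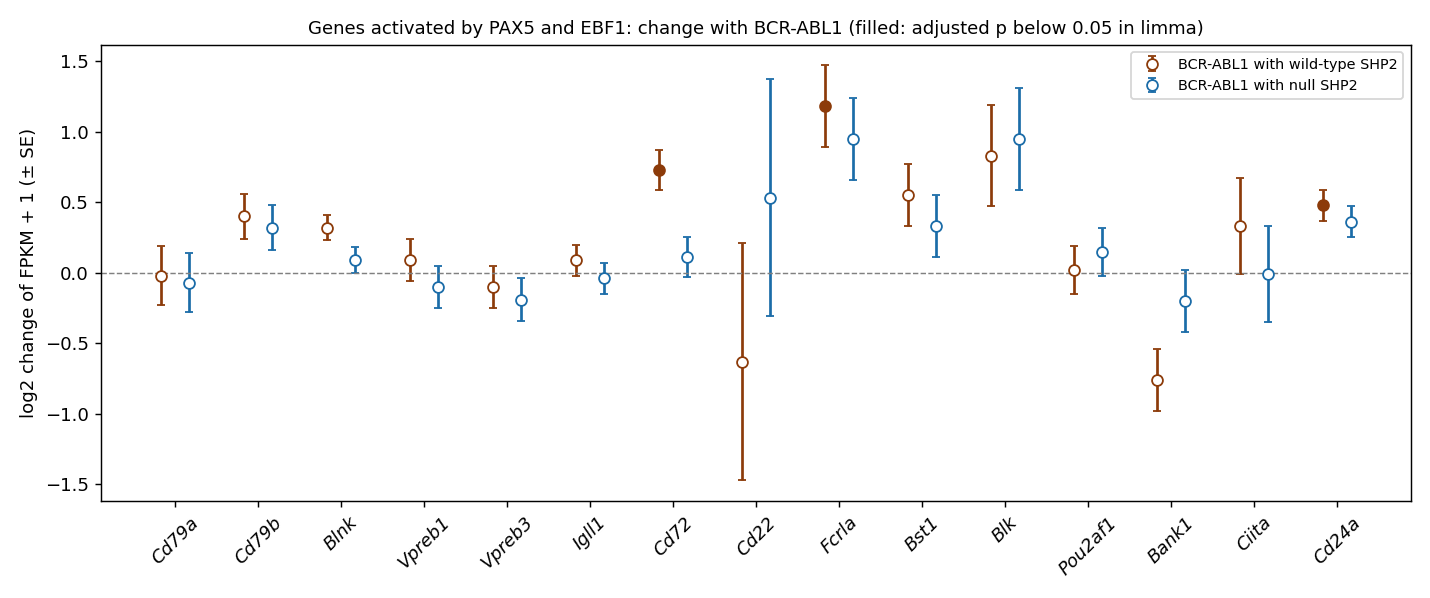
Change with BCR-ABL1 (log2 of FPKM + 1, ± SE) of 15 genes activated by PAX5 and EBF1, in SHP2 wild-type and SHP2-null cells. Filled points passed an adjusted p of 0.05 in limma, and these were Cd72, Fcrla and Cd24a in wild-type cells.

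Other transcription factors of the same cells were read from 2 further lists. Of 18 other B-lineage factors tested, 1 passed for BCR-ABL1 in wild-type cells, beside 4.67% of all genes tested. This was Bcl11a, a zinc finger factor of early lymphoid cells. It read 15.6, 14.7, 21.3 and 16.7 FPKM without and 10.9, 14.9, 9.66 and 11.2 FPKM with the kinase (-0.52 ± 0.14, adjusted p = 0.0419 in limma). The Bcl11a call was lost without library 0, 2 or 3 of either SHP2 wild-type group or library 0 or 2 of the BCR-ABL1-positive SHP2-null group, with adjusted p up to 0.148. Irf8 (0.52 ± 0.17, adjusted p = 0.0922) and Ets1 (0.28 ± 0.09, adjusted p = 0.110) were among the other 7 of 8 with an unadjusted p below 0.05 and did not pass. Such a p was found for 19.1% of all genes. In the null cells and for SHP2 loss in either background 0 of 18 passed in limma, with an unadjusted p below 0.05 for 3, 0 (SHP2 loss with BCR-ABL1) and 2 (without it). Over all genes the shares with such a p were 13.5%, 3.65% and 16.1%. With the replicate block 2 passed for SHP2 loss without BCR-ABL1 (Ets1 and Zeb2, higher) and 2 for BCR-ABL1 in null cells (Id3 lower and Zeb2 higher), beside 5.75% and 5.27% of all genes. Of 16 other progenitor factors 9 were expressed enough to test, and 0 passed in any of the 5 comparisons in limma, with 3 unadjusted for BCR-ABL1 in wild-type cells and 2 in null cells (beside 19.1% and 13.5% of all genes), and 0 in the other 3. The smallest p belonged to Gfi1, a zinc finger repressor, at -0.57 ± 0.17 (adjusted p = 0.0731) in wild-type and -0.63 ± 0.17 (adjusted p = 0.107) in null cells. With the replicate block 2 passed as lower in null cells: Gfi1 (adjusted p = 0.0350) and Zfpm1, a cofactor of GATA factors (-0.52, adjusted p = 0.0478). Averaged over both SHP2 states, where 8.98% of all genes passed, Gfi1 passed, from 2.87 to 1.51 FPKM (-0.60 ± 0.12, adjusted p = 0.00595), as did 4 of the other B-lineage factors: Irf8 higher, and Bcl11a, Id3 and Aff3 lower. Gfi1 and Irf8 kept their calls with each library left out in turn, and Bcl11a, Id3 and Aff3 did not.

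Among pre-B markers, Il7r, the interleukin-7 receptor chain, passed in 3 of the 4 pairwise comparisons. It averaged 6.29 FPKM in BCR-ABL1-negative SHP2 wild-type cells and 11.9 FPKM in BCR-ABL1-negative SHP2-null cells. With BCR-ABL1 its mean was 25.3 FPKM where SHP2 was intact and 25.0 FPKM where it was lost. With BCR-ABL1 it rose by 1.85 ± 0.12 in wild-type cells (adjusted p = 1.18e-06 in limma) and 1.03 ± 0.12 in null cells (adjusted p = 0.00118). With the replicate block Cd93, a receptor of early B cells, also passed as higher in null cells (0.34, adjusted p = 0.0202, against 0.278 without it). With SHP2 loss in BCR-ABL1-negative cells Il7r rose by 0.81 ± 0.12 (adjusted p = 0.00249, and 0.0505 in a fit of these 2 groups alone). Among markers of other cells, BCR-ABL1 in wild-type cells gave calls for Igj (lower, mature B and plasma list), Cma1 and Cpa3 (lower, mast cell list) and Pecam1 (higher, stromal list), and in null cells for Pecam1. SHP2 loss without BCR-ABL1 gave Cma1 (lower). No myeloid marker (3 of 12 tested) or erythroid and megakaryocyte marker (1 of 7 tested) passed in limma in the 5 comparisons without the block. Of the 9 T and NK markers 0 were expressed enough to test. With the replicate block Lyz2 passed as lower for BCR-ABL1 in null cells (-3.05, adjusted p = 0.0122, against 0.141 without it), and Cpa3, a mast cell protease, as lower for SHP2 loss without BCR-ABL1 (-1.37, adjusted p = 0.0326, against 0.127). An unadjusted p below 0.05 was found for 2 of 3 myeloid markers tested with BCR-ABL1 in wild-type cells and 1 in null cells, and for Hbb-b1, the erythroid marker tested, in each of the 5 comparisons except SHP2 loss with BCR-ABL1.

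Within the groups, several B-lineage factors varied with the library number in the sample titles (0 to 3 in each group), a pattern noticed after the data were seen. Pax5, at chr4:44524757-44710487, read 70.5, 80.9, 58.8 and 56.0 FPKM in BCR-ABL1-negative SHP2 wild-type libraries 0 to 3, and 95.2, 94.8, 59.0 and 45.8 FPKM in the SHP2-null ones. With BCR-ABL1 the SHP2 wild-type libraries read 72.6, 89.9, 48.8 and 45.9 FPKM, and the SHP2-null libraries 65.1, 93.7, 42.7 and 53.8 FPKM. In each group, libraries 0 and 1 were above libraries 2 and 3, and over all groups the 8 libraries numbered 0 or 1 (65.1 to 95.2 FPKM) did not overlap the 8 numbered 2 or 3 (42.7 to 59.0 FPKM). Ikzf1, at chr11:11685003-11772926, split in the same way, at 44.3 to 51.9 FPKM against 31.4 to 38.3 FPKM. Ikzf3, at chr11:98464902-98546031, was also higher in libraries 0 and 1 within each of the 4 groups, though its 2 sets of 8 overlapped (23.7 to 37.0 against 13.3 to 27.0 FPKM). That makes 3 of 10 members higher in numbers 0 and 1 within all 4 groups, beside 7.27% of all genes tested.

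An F test of the library number in limma passed for 5 of 10 members beside 31.3% of all genes tested: Pax5 (adjusted p = 0.000752), Ikzf1 (0.000470), Ikzf3 (0.0101), Bach2 (0.0101) and Ebf1 (0.0479). Bach2, a repressor of the plasma cell programme at chr4:32238804-32586108, ran from 12.5 to 17.7 FPKM in numbers 0 and 1 and from 7.47 to 15.8 FPKM in numbers 2 and 3. The test did not pass for Tcf3 (at chr10:80409514-80433647, adjusted p = 0.109), Sox4 (0.154), Erg (0.599), Lef1 (0.708) or Myb (0.738). The number term is shared by all groups, and the direction for Erg was not. Erg in libraries 0 and 1 was above libraries 2 and 3 in BCR-ABL1-negative SHP2 wild-type cells, and below them in the other 3 groups. With the number as a block the residual SD of Pax5 went from 0.39 to 0.17 and that of Ikzf1 from 0.23 to 0.09 on the log2 scale. The factors that passed with BCR-ABL1 or SHP2 loss, Sox4, Myb, Erg and Lef1 (the last in the average over SHP2 states), are 4 of the 5 members without a call for library number. Without the block a number effect stays in the residual, so members with such a call could pass less easily. The part of the fit in this split was not tested. With the block the members called in the pairwise comparisons were Sox4, Myb, Erg and Lef1. Ikzf3, which has a number call, passed with it for BCR-ABL1 averaged over SHP2 states (0.36, adjusted p = 0.0462 in limma). In that fit 4 of 10 members and 1980 of the 10210 genes tested passed.

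**Figure D4:**
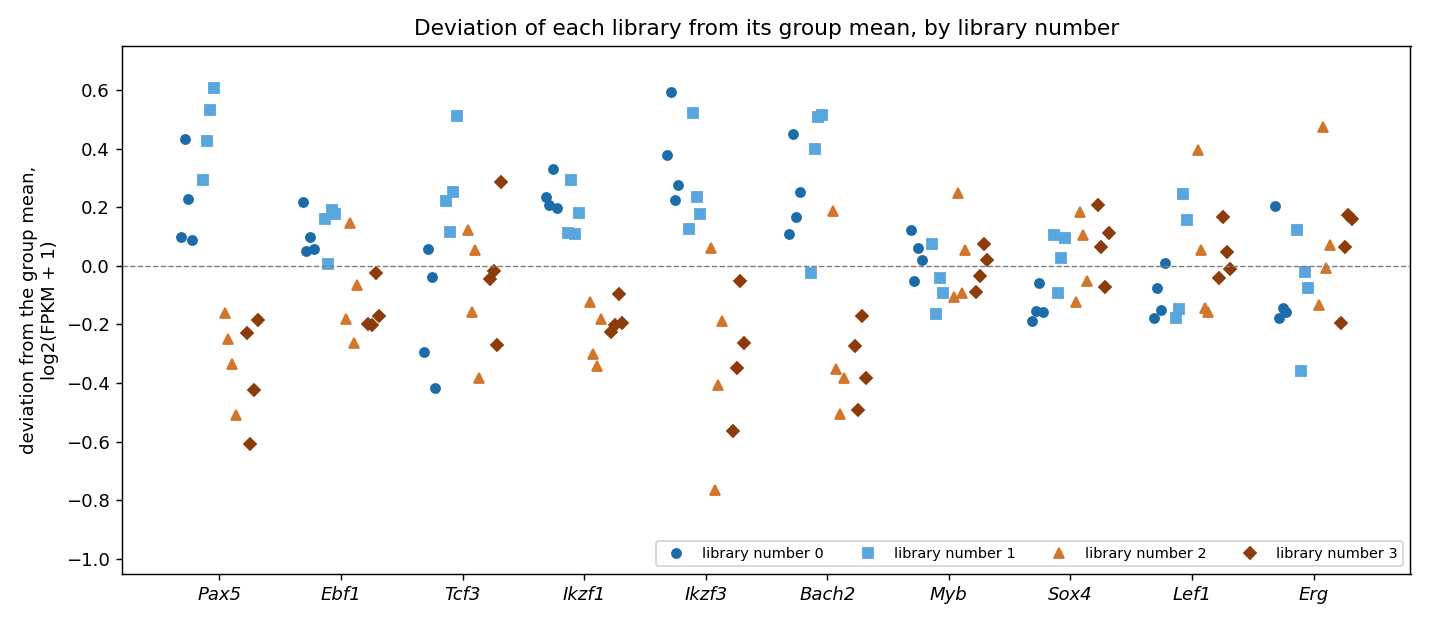
Deviation of each library from its own group's mean, on the log2(FPKM + 1) scale, for the 10 genes, with 4 libraries (1 per group) for each library number. For Pax5 and Ikzf1 all libraries numbered 0 and 1 are above 0 and all numbered 2 and 3 below it. For Myb, Sox4 and Lef1 the numbers are mixed. For Erg libraries 0 and 1 lie apart from 2 and 3 within each group, above them in 1 group and below them in 3.

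Of 12 pre-B, mature B and plasma markers tested, 6 passed the library number term, beside 31.3% of all genes tested. Dntt, the terminal transferase of the earliest B-cell stages, ran from 21.3 to 37.3 FPKM in numbers 0 and 1 and from 82.8 to 256 FPKM in numbers 2 and 3 (adjusted p = 4.9e-05 for the number term in limma). Ms4a1, which encodes the later B-cell antigen CD20, ran the other way, from 6.58 to 21.0 FPKM against 0.925 to 3.75 FPKM (adjusted p = 0.000866), and Cd79a, an antigen receptor chain, from 236 to 294 FPKM against 170.1 to 219 FPKM (adjusted p = 0.000383). The other 3 that passed were Cd79b (0.37) and Cd93 (0.30), with a higher mean log2 level in numbers 0 and 1, and Vpreb1 (-0.34), with a lower one. Igll1, Rag1, Rag2, Il7r, Sdc1 and Igj did not pass. The non-polyadenylated RNAs Rpph1 and Rmrp passed the number term too (adjusted p = 0.00919 and 0.0140 in limma), with overlapping ranges. Rpph1 ran from 1193 to 7123 FPKM in numbers 0 and 1 and from 3657 to 16292 FPKM in numbers 2 and 3, and Rmrp from 1166 to 5432 and from 3404 to 7869 FPKM. Within 2 of the 4 groups both libraries numbered 2 and 3 were above both numbered 0 and 1, for each of these RNAs. Across the genes tested, the difference between numbers 0 and 1 and numbers 2 and 3 had a rank correlation of 0.31 with transcript length and 0.12 with GC content, and genes are not independent replicates. In single libraries, deviations from the mean over all libraries had rank correlations with GC content from -0.46 to 0.47, which differed in sign within number 0. Their mean was 0.29 in BCR-ABL1-negative SHP2-null cells and -0.10 to -0.04 in the other groups. The labels state that each loading for sequencing held 1 library of each group and do not tie the number to a loading. The part of any of these in the pattern of Pax5, Ikzf1, Ikzf3, Bach2 and Ebf1 was not tested.

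The members were also compared with each other. After removal of the group means, over 16 libraries, Pearson's r was 0.90 between Pax5 and Bach2, 0.90 between Ikzf1 and Ikzf3 and 0.81 between Pax5 and Ikzf1, and 0.83 between Myb and Erg. Ikzf3 and Sox4 gave -0.77. Myb, Sox4, Lef1 and Erg did not form a set. Sox4 gave 0.06 with Myb and 0.33 with Erg, and Lef1 gave 0.07 with Sox4, 0.00 with Erg and -0.24 with Myb. These points share library, depth and library number, and the values are descriptions.

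Among all genes tested, those whose level over the 16 libraries was most like a member's by Pearson's r of log2(FPKM + 1) were Ctc1, Tubgcp6 and Pml for Pax5 (each 0.96), Plekho2 for Ebf1 (0.93), Rexo1 for Tcf3 (0.96), Mef2c for Ikzf1 (0.98), Inppl1 for Ikzf3 (0.94) and Cramp1l for Bach2 (0.96). For the members without a call for library number, they were Znrf1 for Sox4 (0.94), Rabgap1l for Myb (0.95), Ube2l6 for Erg (0.95) and Irs2 for Lef1 (0.94). After removal of the group means r was 0.98 for Mef2c with Ikzf1, 0.97 for Ctc1 with Pax5, 0.87 for Znrf1 with Sox4, 0.81 for Rabgap1l with Myb, 0.88 for Ube2l6 with Erg and 0.85 for Irs2 with Lef1. Mef2c is itself a transcription factor of B-cell progenitors and averaged 12.7 FPKM.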

How the data were processed

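PolyA RNA of 16 libraries was sequenced from both ends after a stranded kit, per the labels' protocols. The authors deposited FPKM values by gene symbol. Per the submitters' processing notes, Bowtie and Cufflinks were used with build mm10 (GRCm38), and versions, annotation and strand setting are not given. Of 23758 entries, the 733 of 254 repeated symbols were summed to give 23279 symbols. The 10210 genes reaching 1 FPKM in 4 or more libraries were analysed as log2(FPKM + 1), computed from the deposited values, which understates changes of low genes. One limma model of the 4 groups, with a trend in the prior variance, gave two-sided p-values, adjusted by Benjamini-Hochberg across the genes tested, with calls at 0.05. limma 3.58.1 ran in R 4.3.3 and figures were drawn with matplotlib 3.10.9 in Python 3.11.15, and the fit was tested on simulated data.

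The members, the 11 gene lists, the alternatives and the rule for named genes were chosen with earlier results of these data known. That rule took the members, Ptpn11, list genes that passed and up to 4 more per list and comparison with the smallest p, and for likeness the 3 genes of highest Pearson's r per member. Genes singled out for library number (Rpph1, Rmrp) were chosen after their values were seen. The lists were other B-lineage factors, progenitor factors, PAX5 and EBF1 activated targets, PAX5 repressed targets, and markers of pre-B, mature B and plasma, myeloid, T and NK, erythroid and megakaryocyte, mast and stromal cells, with 1 gene not reported here and left out of their counts. Alternatives covered the pseudocount, the filter, scaling, weights, prior variance, GC content, the replicate block and each library left out. Same-numbered libraries deviated together for SHP2 loss with BCR-ABL1 (r = 0.22 to 0.78), SHP2 loss without it (0.19 to 0.51) and BCR-ABL1 in null cells (0.24 to 0.68), where the number was taken as pairing from the data alone, and less so for BCR-ABL1 in wild-type cells (0.05 to 0.64). Promoters came from RefSeq (GRCm38.p6) and matched 9 of 10 members, and gene positions came from GENCODE on GRCm38.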

Additional observations from a re-analysis of the deposited data

How the results depend on the processing

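The comparisons averaged over a background or SHP2 state are not in the first counts given here. Of 1390 alternative values for the members in the other 5 comparisons, 1374 kept the side of the threshold, 5 lost a call and 11 gained one. No called change turned direction, while 91 uncalled values in 24 of 50 results changed sign. The number of members called for SHP2 loss without BCR-ABL1 was 1, and 0 in a fit of these 2 groups alone, and ran from 0 to 1 with single libraries left out. For BCR-ABL1 in wild-type cells it was 2, with 1 under quantile normalization (Sox4) and 4 under library weights. No setting of this comparison called more than 1621 of the 10210 genes tested. In null cells the number of members called was 0, with 5 under library weights, where 1861 of all genes tested passed. It was 1 (Sox4) with GC correction and the replicate block together, where no more than 1861 of all genes passed. Averaged over both backgrounds, SHP2 loss called 0, and 1 (Erg) under quantile normalization, with the block and with GC correction and block, and 0 to 1 with libraries left out. BCR-ABL1 averaged over SHP2 states called 3, and 6 under library weights, where 2625 of all genes tested passed. The cause was not tested. Blk, a SRC family kinase gene activated by PAX5, had -0.06 for SHP2 loss without BCR-ABL1 and ran from -0.28 to 0.49 with single libraries left out, the latter (adjusted p = 0.0372 in limma) without SHP2-null library 2.

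The replicate block kept the calls of Sox4, Myb and Erg. It added Lef1 for BCR-ABL1 in wild-type cells (-0.42, adjusted p = 0.0485 in limma), where the libraries share only a number, Erg for SHP2 loss averaged over both backgrounds, and Ikzf3 for BCR-ABL1 averaged over SHP2 states (0.36, adjusted p = 0.0462). In wild-type cells, where 12.1% of all genes passed for BCR-ABL1 with the block, it also gave 7 of the 15 activated targets as higher (Cd79b, Blnk, Cd72, Fcrla, Bst1, Ciita and Cd24a) and Bank1 as lower, Spib, Irf8, Ets1 and Zeb2 as higher, Hhex and Gfi1 as lower and S100a8 and S100a9 as higher. Erg lost its call for SHP2 loss without BCR-ABL1 in the fit limited to its 2 groups (adjusted p = 0.167). Over the 16 same-number pairs, 15 had r above 0.1 and 10 libraries matched their own number best. Over all genes, calls with the block were 48 against 32 for SHP2 loss with BCR-ABL1, 587 against 157 without it, 1231 against 477 for BCR-ABL1 in wild-type and 538 against 129 in null cells. The other settings gave 11 to 57, 34 to 644, 186 to 1621 and 30 to 1861 for these comparisons, 0 to 3 for the interaction (0), 68 to 725 for SHP2 loss averaged (152) and 408 to 2625 for BCR-ABL1 averaged (917). The share of calls that were higher was 66.2% for SHP2 loss without BCR-ABL1 and 63.1% for BCR-ABL1 in wild-type cells, and 53.8% and 53.2% under quantile normalization. The depth is unknown, so counting error could not be given.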
